A study of Mus musculus with 6 samples.

Results

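The cells described here were B cells found among cells sorted as CD169-lineage macrophages. The sort took live CD11b hi TOM+ cells from the inguinal lymph nodes of CD169Tom mice, in which Cre from the Siglec1 locus turns on tdTomato permanently in every cell that has expressed CD169 and in its progeny. These mice (Cd169Cre/+.Tdtomatofl/fl, C57BL/6J background, over 6 weeks of age) were either unimmunized (2 mice) or taken at day 9 after immunization with hen egg lysozyme (2 mice). Both groups carried the same alleles. The paper's methods describe immunization with this antigen, joined to an ovalbumin peptide in adjuvant, for mice given antigen-specific T cells and B cells. Whether such cells had been transferred into the immunized mice was not stated for these libraries. CITE-seq counted mRNA molecules (UMIs) in each cell together with barcoded antibodies bound to it, and the pooled cells of all 4 mice were run as 2 captures.

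The B cells were chosen by their RNA. A cell was kept when at most 25% of its UMIs came from mitochondrial genes, its barcode sequence occurred in 1 capture, and 1 hashtag held at least 80% and at least 10 of its hashtag counts. A kept cell was called a B cell when it had at least 2 UMIs of Cd79a, at least 2 UMIs of Ms4a1, Cd79b and Ebf1 together, and no UMI of Xcr1, a gene of cross-presenting dendritic cells. Of 18662 barcodes 12139 were kept, and 303 of these were gated as B cells. The other 11836 kept cells served as the comparison, and they included 1345 cells with at least 2 UMIs of Cd3 genes, which mark T cells, and no UMI of Cd79a or Xcr1 (Cd3 cells below).

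The mouse of each B cell rested on the 15-base tag of its hashtag antibody, and the tags are shown because every comparison between mice depends on them. Hashtags 1 and 2 marked the unimmunized mice and hashtags 3 and 4 the immunized mice.
Hashtag 1: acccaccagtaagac
Hashtag 2: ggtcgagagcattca
Hashtag 3: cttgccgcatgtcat
Hashtag 4: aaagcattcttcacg
The hashtag rule removed a larger share of gated than of other barcodes. It took 124 of 427 gated barcodes (29.0%, exact 95% interval 24.8 to 33.6) and 3325 of 15161 others (21.9%, 21.3 to 22.6), in every case because no hashtag held 80% of the counts. The rule can remove doublets of cells from different mice only where neither hashtag dominates, and it cannot remove doublets within a mouse. How many doublets remained was not measured.

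B cells recognise antigen through a surface immunoglobulin that signals through the paired chains CD79A and CD79B. Naive follicular B cells carry IgM and IgD. In a germinal centre, dividing B cells mutate their receptor, can switch from IgM and IgD to IgG, IgA or IgE, and die in large numbers, and macrophages of the follicle engulf the dying cells. B cells do not normally express Siglec1 or Csf1r, so their presence behind a Siglec1-driven reporter and a CD11b stain is the reason for the macrophage RNA and antibody values given below.

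B cells were found in all 4 mice, and their share did not follow immunization. Unimmunized mouse 1 had 84 B cells among 2828 kept cells (2.97%, 2.38 to 3.66) and unimmunized mouse 2 had 15 among 537 (2.79%, 1.57 to 4.57). Immunized mouse 1 had 161 among 4052 (3.97%, 3.39 to 4.62) and immunized mouse 2 had 43 among 4722 (0.911%, 0.660 to 1.22). The 2 immunized mice were thus the highest and the lowest of the 4. The mean share was 2.44% ± 2.17 (SD, n = 2) in immunized and 2.88% ± 0.1252 (SD, n = 2) in unimmunized mice, a difference of -0.440 percentage points (two-sided exact permutation test over mice, p = 1, where the smallest p that 2 mice against 2 allow is 0.333). In capture 1 alone the difference was 0.647 points and in capture 2 alone it was -1.48 points, since unimmunized mouse 2 gave 2 B cells in capture 1 and 13 in capture 2. Intervals of shares here cover counting error only, and fewer B cells, more cells of other types in the sort and different losses at the hashtag rule cannot be told apart.

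**Figure D1:**
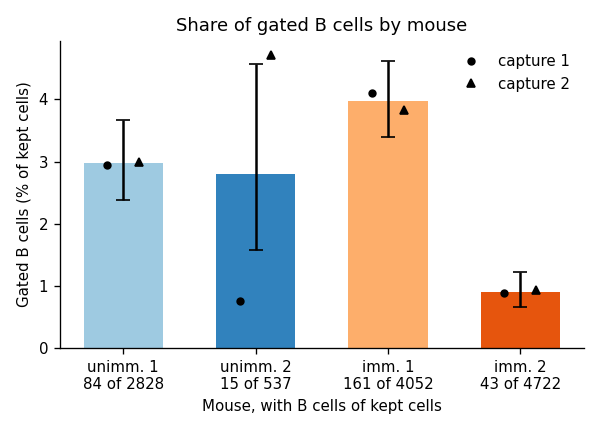
Gated B cells as percent of kept cells in each mouse (bars, with exact 95% binomial intervals), and the same in capture 1 (circles) and capture 2 (triangles). Immunized mouse 1 had the highest share (3.97%) and immunized mouse 2 the lowest (0.911%), and the captures differed most in unimmunized mouse 2.

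The B cells were shallower than their neighbours in the sort. The median B cell had 4575 UMIs and the median other cell 10034.5. The medians of B cells were 3368.5 and 3148 UMIs for unimmunized animals, and 7540.0 and 5603 for immunized animals. Summed over cells the B cell libraries held 423146, 86166, 1413216 and 384582 UMIs in the same order, so that unimmunized mouse 2 was by far the least well measured. The median mitochondrial share was 5.77% in B cells and 3.50% in other cells.

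The label was checked against B cell genes outside the gate. Levels are given throughout as CPM, the counts of a gene scaled to a common total, of the UMIs summed over the B cells of 1 mouse, in the order unimmunized mouse 1, unimmunized mouse 2, immunized mouse 1 and immunized mouse 2. Since the gate itself chose the cells by RNA, levels of B cells against other cells are a description and were not tested. All 20 of the 20 B lineage genes outside the gate were higher in B cells than in other cells in 4 of 4 mice, as were 25.7% of all 4720 genes tested in B cells. The share of those genes lower in 4 of 4 mice was 22.1%, and both shares cover only genes that passed the filter on low counts in B cells. The lists that follow are counted over all their members. Many members did not pass it, in the lists of other cell types and in several lists of B cell kinds. Of the germinal centre list 7 of 15 genes passed it, of the plasma cell list 5 of 12 and of the memory list 4 of 12. Those counts therefore cannot be set against these shares. Pax5, the transcription factor that holds B cell identity, had 179.6, 255, 152 and 130.0 CPM in B cells and at most 0.804 CPM in the other cells of any mouse. It had a UMI in 172 of 303 B cells (56.8%) and in 0.177% of the other cells.

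The gate genes themselves set the scale of the separation, although the gate fixed its direction. Cd79a (chr7:24897381-24902197, mm10, plus strand) had 2524, 2495, 2264 and 1869.6 CPM in B cells and 5.40, 2.95, 3.38 and 1.22 CPM in other cells. Ms4a1 (chr19:11249675-11266241, minus strand), which encodes CD20, had 1172, 1706, 1438 and 785 CPM. Cd79b (chr11:106311341-106314762, minus strand) had 1316, 1694, 1229 and 969.9 CPM, and at 14.9 to 36.4 CPM it was the gate gene least restricted to B cells. Ebf1 (chr11:44617317-45008091, plus strand), a factor that starts the B cell programme, had 1163, 1288, 839 and 634 CPM. The median B cell carried 13 Cd79a UMIs, with a range of 2 to 95. Only 7 B cells lay just inside the gate, with 2 Cd79a UMIs or a sum of 2 for the other genes, and 42.9% of these had a Csf1r UMI. Just outside it, 14 cells with 1 Cd79a UMI had a Csf1r UMI in 85.7% and of 4 cells with a sum of 1, 3 had one, whereas 285 B cells with at least 5 of both had one in 14.0%.

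**Figure D2:**
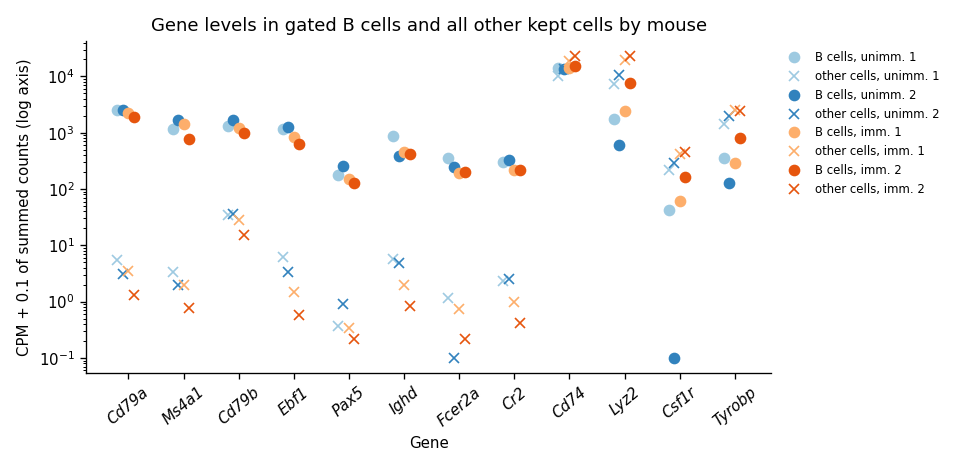
Level of 12 genes in gated B cells (circles) and all other kept cells (crosses) of each mouse, in CPM of summed counts with 0.1 added on a log axis. The B cell genes from Cd79a to Cr2 separate the cells in every mouse, Cd74 does not, and the macrophage genes Lyz2, Csf1r and Tyrobp are lower in B cells in every mouse.

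Ranked by their lowest ratio over the 4 mice, the genes most restricted to B cells were almost all known B cell genes. Among 1712 genes with at least 50 CPM in the B cells of every mouse, 119 were over 2-fold and 39 over 10-fold higher than in other cells in every mouse. After Cd79a (467-fold or more in every mouse) and Ms4a1 (362-fold or more) came Fcmr, the IgM Fc receptor (361-fold or more), the unnamed gene model Gm31243 (346-fold or more) and Pax5 (318-fold or more). Fcer2a, which encodes the low-affinity IgE receptor CD23 of follicular B cells, was at least 303-fold higher and had 349.8, 244, 194 and 203 CPM. Iglc3, a lambda light chain constant gene, was 299-fold or more higher and Ly6d, a surface marker of the early lineage, 271-fold or more. The gene model Gm30211, Tnfrsf13c (the BAFF receptor), Ebf1 and Pou2af1 (a coactivator of immunoglobulin transcription) completed the 12, with lowest ratios of at least 202, 188, 187 and 183. Counts under 3 UMIs were set to 3 for these ratios, which makes those of Gm31243, Gm30211, Fcer2a, Tnfrsf13c and Pou2af1 lower bounds.

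Ratios of genes low in B cells are limited by depth, since 3 UMIs correspond to 34.8 CPM in the B cells of unimmunized mouse 2 and to at most 0.804 CPM in the other cells of any mouse. Of 2164 genes with at least 50 CPM in the other cells of every mouse, 152 were over 2-fold lower in the B cells of every mouse and 0 were over 10-fold lower. Klrk1, which encodes the activating receptor NKG2D, was at least 5.30-fold lower. The others of the lowest 8 were Ramp1, Emb, Itm2c, Grk3, Mt1, Tmem176a and Fabp5, at least 3.43-fold to 4.80-fold lower. Tmem176a had 191, 0, 82.8 and 143 CPM in B cells and 720.0, 874, 1049.6 and 749 CPM in other cells.

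Genes of B cell receptor signalling were mixed. Of 24 listed genes, 14 were higher and 3 were lower in B cells in 4 of 4 mice. Bank1, a scaffold of receptor signalling, had 506, 534, 472 and 411 CPM against at most 3.62 CPM in other cells. Cd72, an inhibitory co-receptor, had 258, 267, 295 and 273 CPM, and Cr2, the complement receptor CD21, had 305, 325, 217 and 218 CPM. The phosphatase gene Ptpn6 had 321, 279, 315 and 309 CPM in B cells and 203, 219, 331 and 308 CPM in other cells, so those levels overlapped. Among 24 B cell transcription factor genes 20 were higher in B cells of every mouse, with Ebf1, Mef2c, Pou2f2 and Bcl11a the most abundant. Ebf1, whose direction the gate fixed, is among these 20. Among 17 genes of survival and T cell help 7 were higher and 4 lower. There Tnfrsf13c and Ly86, a partner of the receptor CD180, were higher in B cells of every mouse. Mcl1, a survival gene, was higher in 2 mice and lower in 2, and the survival gene Bcl2a1b was lower in all 4.

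Follicular and recirculating genes were present in B cells of every mouse. Of 12 genes 8 were higher in B cells in 4 of 4 mice and 0 were lower. Ighd, the IgD constant gene, had 869.7, 383, 450.0 and 411 CPM, and a UMI in 234 of 303 B cells (77.2%, 72.1 to 81.8) against 22 of 1345 Cd3 cells (1.64%). Fcer2a had a UMI in 214 B cells (70.6%) and Cr2 in 184 (60.7%), and both were found in under 1% of other cells (0.321% and 0.786%). Klf2, which keeps lymphocytes recirculating, had 362, 359.8, 277 and 221 CPM, lower in both immunized than in both unimmunized mice. The list showed that direction in 7 of its 12 genes, where 24.5% of all genes tested in B cells did, and the opposite direction in 0, where 12.7% did. This was not particular to follicular genes. The same direction was seen in 3 of 4 gate genes, 9 of 20 other B lineage genes and 11 genes of the transcription factor list. The opposite was seen in 0, 2 and 0. The macrophage and monocyte list had a median log2 fold change of 1.12. None of these genes passed the test described below.

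Of 12 immunoglobulin constant genes 9 were higher and 0 lower in B cells of every mouse. Igkc, the kappa light chain gene, was the most abundant at 6641, 8286, 8200.4 and 5044 CPM, and 261 of 303 B cells (86.1%) had more kappa than lambda UMIs, with 37 showing the reverse and 5 a tie. Immunoglobulin genes together took 1.30%, 1.47%, 1.33% and 0.928% of B cell UMIs and at most 0.0393% of those of other cells. Sorted by the heavy chain constant gene with most UMIs, 205 B cells led with Ighm, 45 with Ighd and 52 with an Ighg gene, none led with Igha or Ighe, and 1 had no heavy chain UMI. Ighg1, Ighg2b, Ighg2c and Ighg3 led in 20, 19, 8 and 5 cells. These genes, like the Iglc genes, are close copies of each other, so reads may have been split or lost between them. Of the 20 cells led by Ighg1, 19 came from immunized mouse 1, 1 from immunized mouse 2 and 0 from the unimmunized mice.

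**Figure D3:**
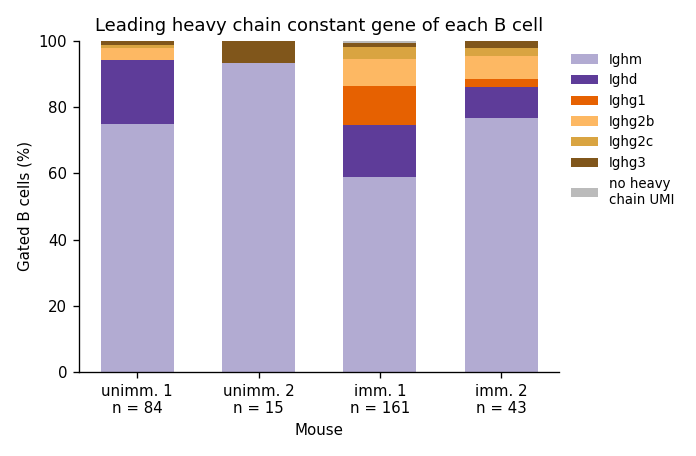
Percent of the gated B cells of each mouse led by each heavy chain constant gene (the gene with most UMIs in that cell). Ighm led in most cells of every mouse, and cells led by Ighg1 (orange) came from the immunized mice, 19 in mouse 1 and 1 in mouse 2.

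Class-switched cells, in which Ighg, Igha and Ighe UMIs outnumbered those of Ighm and Ighd and came to at least 2, were more frequent in both immunized mice. Unimmunized mouse 1 had 5 of 84 (5.95%, 1.96 to 13.3) and unimmunized mouse 2 had 1 of 15 (6.67%, 0.169 to 31.9). Immunized mouse 1 had 41 of 161 (25.5%, 18.9 to 32.9) and immunized mouse 2 had 5 of 43 (11.6%, 3.89 to 25.1). The groups did not overlap, but the difference of 12.2 percentage points had the smallest p that the design allows (two-sided exact permutation test, p = 0.333, adjusted p = 1 over 5 classes). Most of it came from immunized mouse 1, without which the difference was 5.32 points. Depth differed in the same direction, with a median of 11241 UMIs in switched and 3835 in other B cells. A Csf1r UMI was found in 17 of 52 switched and 28 of 251 other B cells, and among B cells without one the difference was 10.8 points. After each cell was thinned to 1000 UMIs the difference was 0.0551 points. The thinned shares were 2.38%, 6.67%, 6.83% and 2.33% by mouse, so the groups then overlapped. In the other kept cells 0.401%, 0.383%, 1.34% and 1.58% by mouse met the same definition without thinning. Those shares were also higher in both immunized mice.

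Ighd-positive and Ighd-negative B cells differed in more than this gene, which is given as a description because the cells were split by a measured value. Genes other than the most abundant of their list are named here after their values were seen. The 234 cells with an Ighd UMI had a median of 3732.5 UMIs and the 69 without one a median of 10971. Class-switched cells numbered 6 in the first and 46 in the second. A Csf1r UMI was found in 28 of 234 of the first and 17 of 69 (24.6%) of the second, with a median of 3 and 6 Lyz2 UMIs, and the part of macrophage RNA in what follows was not tested. In cells with Ighd, Fcer2a had 467, 300.0, 252 and 239.8 CPM, and in cells without it 34.9, 115, 114 and 41.8 CPM, lower in every mouse. Cr2 and Cxcr5 (the receptor that guides B cells into follicles) were also lower in Ighd-negative cells of 4 of 4 mice. Germinal centre genes did not move as a list, whose summed level was 587, 249.97, 297 and 319.8 CPM with Ighd and 567, 3593, 1071 and 278 CPM without, lower without Ighd in 2 of 4 mice. Fas, Basp1 and Mybl1 were higher without Ighd in 4 of 4 mice, Lmo2 was lower in 3 of 4, and Bcl6, S1pr2 and Neil1 were higher in 2 and lower in 2. Fas had 22.7, 0, 36.6 and 41.6 CPM with Ighd and 69.8, 268, 116 and 69.6 CPM without. Cxcr3, a chemokine receptor listed for memory and age-associated B cells, had 6.48, 0, 57.4 and 3.20 CPM with Ighd and 69.8, 76.5, 173 and 97.4 CPM without. The sum of that list was lower without Ighd in 2 of 4 mice, Zeb2 was higher in 2 and lower in 2, and Bcl2 was lower in 3. Only 4 cells of unimmunized mouse 2 and 7 of immunized mouse 2 lacked Ighd.

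The germinal centre gene most restricted to B cells among those named was carried by few of them. Of 15 listed genes 9 were higher in B cells of every mouse and 1 was lower. Lmo2, Basp1, Fas and Mef2b were the most abundant in B cells, and of these Mef2b, a germinal centre transcription factor, was the one nearly absent elsewhere, with 18.9, 151, 47.4 and 10.4 CPM in B cells and at most 0.268 CPM in other cells. It had a UMI in 29 B cells (9.57%), by mouse 4, 2, 21 and 2 cells, and in 0.152% of other cells. Unimmunized mouse 2 was high from 2 of its 15 cells. A class of cells with at least 2 UMIs over 13 germinal centre genes held 134 B cells, but 30.4% to 65.2% of the other cells met it as well, so it did not mark B cells of that kind. Its difference between conditions was 8.93 points (two-sided exact permutation test, p = 0.667), and nothing is read from it.

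Dividing cells, with at least 3 UMIs over 9 cell cycle genes, numbered 2 of 84 (2.38%), 3 of 15, 22 of 161 (13.7%) and 6 of 43 (14.0%). Of the other cells 1.15% to 2.74% met that definition although they were deeper. The immunized and unimmunized mice overlapped (difference 2.62 points, two-sided exact permutation test, p = 1). After thinning to 1000 UMIs the difference was -4.26 points. Of 18 cell division genes 16 were higher in B cells of every mouse. Hmgb2, a chromatin protein gene, had 425, 1404, 573 and 839.9 CPM in B cells and 288 to 336 CPM in other cells, and Stmn1, a microtubule regulator, had 102, 302, 95.5 and 231 CPM against 8.78 to 46.0 CPM. The dividing B cells had a median of 12880 UMIs, and 16 of 33 were class-switched. A Csf1r UMI was found in 10 of 33 dividing and 35 of 270 other B cells. Among B cells with no Csf1r UMI and under 0.1% of UMIs from Lyz2 the difference was negative, as given under the processing below. The cause of this turn was not tested.

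Cells with many Jchain UMIs were rare. At least 10 UMIs of Jchain, which joins IgM and IgA into polymers, were found in 1, 1, 1 and 0 B cells. Of these 3 cells, 2 were in the dividing class and 1 had an Ighd UMI, so this single gene does not name them plasma cells. Of 12 plasma cell genes 3 were higher and 3 lower in B cells of every mouse. The higher ones included Mzb1, a chaperone of immunoglobulin assembly also made by innate-like B cells, with 349.8, 569, 623 and 429 CPM and a UMI in 71.3% of B cells. Slamf7 was lower in B cells of every mouse, and Xbp1 had 68.5, 139, 63.0 and 59.8 CPM against 106 to 152 CPM.

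Among genes of marginal zone and B1 cells 3 of 11 were higher and 4 were lower in B cells of every mouse, and Ctla4 had no UMI. Plac8, a gene shared with myeloid cells, led this list at 711, 1311, 1692 and 2436 CPM, below its level in other cells of every mouse. Bhlhe41, a transcription factor of B1 cells, had 35.4, 34.8, 122 and 57.2 CPM and a UMI in 71 B cells. Of 12 memory and age-associated genes 5 were higher and 5 lower. Zeb2 was the most abundant and was lower in B cells of every mouse, while Zbtb20 and Bcl2 were higher.

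MHC class II genes were highly expressed in B cells and in the other cells. Cd74, the invariant chain, had 14234, 13567, 14144 and 15562 CPM in B cells, a spread of 844 (SD, n = 4) around a mean of 14377. In other cells it ran from 10372 CPM in unimmunized mouse 1 to 23311 CPM in immunized mouse 2. H2-Eb1, H2-Ab1 and H2-Aa were lower in B cells of every mouse, and of the 10 genes of this list 3 were higher and 4 lower. The interferon response list had 1 of 18 genes higher and 9 lower in B cells of every mouse, with Ifi27l2a, Ly6a and Ifi209 among the most abundant. Early activation and NF-kB genes had 4 of 22 higher, Cd83 and Rel among them, and 8 lower, Nfkbia and Junb among them. Dissociation and heat shock genes had 1 of 10 higher, Hsp90aa1, and 6 lower.

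The doublet check used Csf1r, the receptor for the macrophage growth factor CSF1, and Lyz2, which encodes lysozyme. Csf1r had a UMI in 45 of 303 B cells (14.9%, 11.04 to 19.4), by mouse 6, 0, 31 and 8 cells, where 0 of 15 cells allows a share of up to 20%. The same share was 21.3% in Cd3 cells, which should lack the gene, and 40.5%, 51.7%, 72.2% and 90.6% in all other cells by mouse. The median depths were 4575, 6299 and 10034.5 UMIs. After thinning to 1000 UMIs it was 2.64% (1.15 to 5.14) in B cells, 5.204% (4.08 to 6.53) in Cd3 cells and 27.6% in other cells. Csf1r in B cells as a whole was not above the share in Cd3 cells, so it is not read as expression. Cd3 cells also held Lyz2, with a median of 6 and a mean of 25.1 UMIs, and the source of this RNA was not tested.

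Lyz2 was spread over nearly all B cells at a low level, with a few high cells. It had a UMI in 285 B cells (94.1%), with a median of 3 UMIs per B cell and 145 per other cell. The highest B cell had 979. A group of 16 B cells had at least 3 Csf1r UMIs, and all 16 also had at least 0.5% of their UMIs from Lyz2. Their median was 19851.5 UMIs, against 4181 UMIs in B cells without Csf1r. By mouse they numbered 2, 0, 8 and 6. Conversely 203 B cells (67.0%) had no Csf1r UMI and under 0.1% of UMIs from Lyz2.

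**Figure D4:**
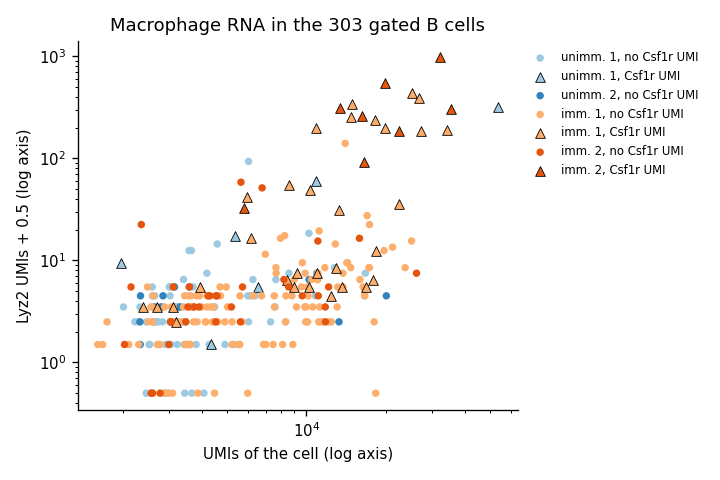
Lyz2 UMIs (0.5 added) against total UMIs for each of the 303 gated B cells, both on log axes, with colour for the mouse and triangles for cells with a Csf1r UMI. The median over all cells is 3 Lyz2 UMIs, and a group with a Csf1r UMI and many Lyz2 UMIs, up to 979, lies at high depth.

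The whole macrophage and monocyte list had 0 of 20 genes higher and 16 lower in B cells of every mouse. Its summed level was 4098, 1149, 4004 and 11891 CPM in B cells and 13152, 17321, 29351 and 33756 CPM in other cells, with Lyz2 as the most abundant gene at 1787, 615, 2437 and 7723 CPM in B cells. The level in B cells was highest in immunized mouse 2, whose other cells were also highest. Fcer1g and Tyrobp, adaptor genes of myeloid receptors, each had a UMI in 138 B cells. T cell and NK cell genes summed to 362, 221, 198 and 96.2 CPM, with 1 of 12 higher in B cells, Cd2, and 9 lower. At least 2 UMIs of Cd3 genes were found in 3 B cells, all from unimmunized mouse 1, which held all 35 Cd3g UMIs of B cells. Dendritic cell genes had 0 of 10 higher and 7 lower, and these 7 include Xcr1, which the gate set to 0. Plasmacytoid dendritic cell genes had 1 of 8 higher and 2 lower, with Klk1 at 0.

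Transcripts of the sort markers were scarce in B cells. Tomato, the reporter, had 1, 0, 1 and 0 UMIs in B cells, which is 2 of 303 cells (0.660%, 0.0800 to 2.36). It was scarce everywhere, found in 2.04%, 1.72%, 4.60% and 7.44% of other cells, so its absence from a cell says little. Siglec1, which encodes CD169, had 7.09, 11.6, 3.54 and 10.4 CPM in B cells from 3, 1, 5 and 4 UMIs, and 12.1, 11.3, 13.5 and 27.3 CPM in other cells. The groups overlapped, and 4.29% of B cells and 4.31% of Cd3 cells had a UMI. Itgam, which encodes CD11b, had 21.3, 0, 13.4 and 41.6 CPM in B cells and 68.7, 94.1, 112 and 135 CPM in other cells, lower in every mouse. Hy10, a feature that the study added to the reference and that the sources used here do not explain for these libraries, was found in B cells of immunized mouse 1, with 10 UMIs in 9 of 161 cells (5.59%, 2.59 to 10.3). Of those cells 3 had an Ighd UMI and 4 were in the dividing class. B cells of the other mice had 0, and all other kept cells had 1, 0, 1 and 1 UMIs.

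Antibody counts were lower on B cells, with a median of 50 over the 6 antibodies together against 180 on other cells. The 15-base tags of the antibody to the reporter's host gene product, CD169, and of the antibody lowest on B cells relative to other cells, CD11c, were as follows.
CD169: attgacgacagtcat
CD11c: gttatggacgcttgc
Signals were compared as centred log ratios, the natural log of the count plus 1 less its mean over the 6 antibodies of that cell, so that a value is relative to the other antibodies. CD11c, an integrin of dendritic cells and macrophages, was lower on B cells in 4 of 4 mice, by -0.549 ± 0.160 (SD, n = 4; two-sided exact sign-flip permutation test, p = 0.125, the smallest that 4 mice allow, adjusted p = 0.375 over 6 antibodies). Ly-6g was higher in 4 of 4 mice on this scale, by 0.552 ± 0.161, with the same exact p, but not on the scale of mean counts, where the log2 difference was -0.590 and 1 of 4 mice was higher.

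CD169 signal spanned a narrower range on B cells than on other cells. B cells had 0.0220, -0.135, 0.193 and -0.0534, and other cells 0.919, 0.546, -0.223 and -0.660. The mean was therefore lower on B cells than on other cells in both unimmunized and higher in both immunized mice, with a mean difference of -0.139 ± 0.760 (SD, n = 4; exact sign-flip permutation test, p = 0.75). In mean counts, B cells had 12.2, 7.33, 16.1 and 13.7 CD169 counts per cell and other cells 55.6, 37.0, 15.5 and 6.29. The median counts were 2, 2, 8 and 2 on B cells and 45, 27.5, 4 and 3 on other cells, so in immunized mouse 2 the median B cell was not higher. Cd3 cells had 65.5, 52.4, 29.0 and 20.4, above B cells of the same mouse in all 4. CD68, F4/80 and Ly-6c differed by 0.247 ± 0.256, -0.000351 ± 0.296 and -0.110 ± 0.488 (SD, n = 4), and none of the 6 antibodies passed the test. On the scale of mean counts F4/80 and Ly-6c were lower on B cells in 4 of 4 mice, by log2 differences of -1.001 ± 0.323 and -1.76 ± 0.805 (SD, n = 4).

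**Figure D5:**
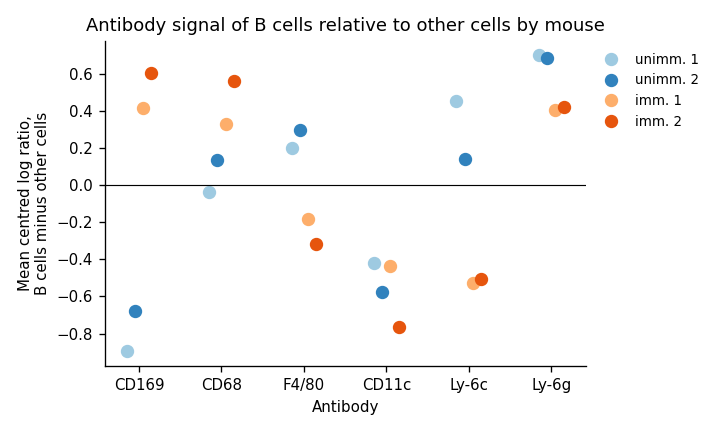
Mean centred log ratio of each antibody on B cells minus that on other kept cells of the same mouse, 1 point per mouse. CD11c lies below 0 and Ly-6g above 0 in all 4 mice, and CD169, F4/80 and Ly-6c change sign on this scale between the unimmunized (blue) and immunized (orange) mice, whereas mean counts of F4/80 and Ly-6c are lower on B cells in all 4.

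The comparison of immunized with unimmunized mice within B cells asked whether these cells changed at day 9. UMIs were summed per mouse and tested by edgeR (quasi-likelihood test, p-values adjusted after Benjamini and Hochberg). At 0.05, 0 of 4720 genes passed in either direction (0% in the whole table), and the lowest adjusted p was 0.951. At an unadjusted p under 0.05 there were 232 genes (4.92%). DESeq2 called 0 and had 66 at that unadjusted p. Counts were also simulated with the common dispersion of these B cells (0.0440) for every gene. There the same fit called 57 of 82 genes changed 4-fold (69.5%) and 12 of 93 changed 2-fold (12.9%), so most 2-fold changes were missed. Dispersion that differs between genes was not simulated, so these shares may not hold for the data. Ighg1 and Cfb, with estimated changes above 4-fold given below, did not pass. With 1 mouse left out, a condition is left with 1 mouse whose spread is taken from the other condition, so the counts that follow are less secure. Without unimmunized mouse 1, 66 genes passed, without unimmunized mouse 2, 34, without immunized mouse 1, 2 and without immunized mouse 2, 1.

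Since no gene passed, the gene lists are given by the median of their members. The median log2 fold change over all tested genes was 0.01. It was -0.27 over the 4 gate genes, -0.17 over 20 other B lineage genes, 0.04 over 24 signalling genes, -0.34 over 12 follicular genes and -0.40 over 22 of 24 transcription factors. It was -0.48 over the 7 germinal centre genes that passed the filter on low counts, -0.39 over 5 plasma cell genes, 0.39 over 4 marginal zone and B1 genes, 0.15 over 4 memory genes and -0.20 over 15 cell division genes. It was 0.30 over 10 MHC class II genes, 0.30 over 13 interferon response genes, -0.08 over 14 activation genes, -0.05 over 12 survival genes and -0.08 over 10 immunoglobulin constant genes. The largest median was that of the macrophage and monocyte list, 1.12 over 11 of its 20 genes. The dissociation list had -0.48 over 3 genes, and the dendritic, plasmacytoid, T cell and red cell lists had 1 or 2 genes each.

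The genes that follow had low unadjusted p-values. They are named after their values were seen, and none passed the adjusted test. Ighg1 (chr12:113325240-113330523, minus strand) had 4, 1, 313 and 19 UMIs, or 9.45, 11.6, 221 and 49.4 CPM. Both immunized mice were above both unimmunized mice, with a log2 fold change of 3.99 (SE 0.84, edgeR adjusted p = 0.951). It ranged from 2.40 to 4.65 with 1 mouse left out. Among B cells without a Csf1r UMI it was 3.64 (adjusted p = 0.0627). Cfb, complement factor B, had 33.1, 11.6, 104 and 255 CPM, and its log2 fold change was 2.72 (SE 0.54), but 0.28 in B cells without Csf1r and 2.05 to 4.03 with 1 mouse left out. Lyz2, with 1787, 615, 2437 and 7723 CPM, had a log2 fold change of 2.13 (SE 0.49), 0.23 in B cells without Csf1r and 1.14 to 3.20 with 1 mouse left out.

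With the Csf1r-positive cells left out, the fold changes of Lyz1, Serpina3g, Ly6a, Bhlhe41 and Nfkbid moved less than those of Cfb and Lyz2. That of Plac8 fell from 1.18 to 0.64. Lyz1, a close copy of Lyz2 with 33.1, 11.6, 84.2 and 146 CPM, had a log2 fold change of 2.08 (SE 0.46) in all B cells and 2.10 in those without Csf1r, and 1.75 to 3.40 with 1 mouse left out. Serpina3g, a protease inhibitor of activated lymphocytes, had 49.6, 46.4, 110.4 and 226 CPM, with a log2 fold change of 1.85 (SE 0.43) in all B cells and 1.72 in those without Csf1r. Ly6a, an interferon-inducible surface protein gene, had 349.8, 337, 596 and 601 CPM (log2 fold change 0.92, SE 0.24, and 0.85 without Csf1r). Bhlhe41 had 1.56 (SE 0.47) and 1.76, and 0.82 to 1.97 with 1 mouse left out. Nfkbid, a regulator of NF-kB, had 63.8, 81.2, 20.5 and 20.8 CPM, the reverse order, with a log2 fold change of -1.59 (SE 0.42) in both sets of cells. Plac8 had 1.18 (SE 0.29) and 0.64, and 0.82 to 1.69 with 1 mouse left out. The gate chose the cells by its own genes, so their changes are a description: -0.16 (SE 0.19) for Cd79a, -0.22 (SE 0.30) for Ms4a1, -0.32 (SE 0.23) for Cd79b and -0.60 (SE 0.23) for Ebf1. Ighm had -0.67 (SE 0.22), with 1836, 2634, 1243 and 1337 CPM, and Ighd -0.48 (SE 0.32).

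Whether immunization changed B cells differently from the other kept cells was tested as an interaction in 1 fit over the 8 summed libraries. Of 10704 genes 0 passed (0% of the table, with 726 at an unadjusted p under 0.05, which is 6.78%), and DESeq2 called 0, with 580 at that unadjusted p. Since each mouse gave both a B cell and an other-cell library, the mouse was also used as a block. Then 117 genes passed, 94 with a higher (0.878%) and 23 with a lower (0.215%) change in B cells, with 7.16% at an unadjusted p under 0.05. The block leaves few degrees of freedom, so these p-values rest largely on spread shared across genes. They are a poor measure of the spread between mice of a single gene. The other cells alone had 0 of 13513 genes past the threshold with edgeR, 4051 at an unadjusted p under 0.05 (30.0%) and 1688 called by DESeq2. The mixture of cell types among them differed between mice, with Cd3 cells numbering 904 of 2744, 115 of 522, 221 of 3891 and 105 of 4679. In counts summed over such a mixture, fewer cells of a type and less RNA per cell cannot be told apart.

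The genes of the lists that passed with the mouse as a block included several that were nearly level in B cells and lower in the other cells of immunized mice. Blk, a kinase of B cell receptor signalling, had 123, 116, 137 and 125 CPM in B cells and 91.3, 40.5, 7.21 and 1.64 CPM in other cells. Its interaction was 4.40 (SE 0.43, log2 scale, edgeR adjusted p = 5.75e-21, with the limit given above). The difference lay in the other cells, and the part of their Cd3 cell numbers in it was not tested. Ikzf3, a lymphocyte transcription factor, and Ets1, another, had interactions of 3.25 (SE 0.41) and 2.44 (SE 0.39), with levels in other cells that also ran downward from unimmunized mouse 1 to immunized mouse 2. Ebf1 also passed, but the gate used it, so this is not read as a test.

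Among the others, some rested on few B cells, and some had single cells with many UMIs or a high level in 1 mouse. S100a8, a neutrophil and monocyte gene, had 58, 0, 1 and 1 UMIs in B cells, and 57 of the 58 came from 1 cell, yet its interaction was -7.02 (SE 0.76, edgeR adjusted p = 8.07e-17). S100a9, with 51, 0, 7 and 0 UMIs and 49 in 1 cell, had -5.11 (SE 0.64). The complement genes C1qa, C1qb and C1qc, which macrophages express, had interactions of -1.64, -1.84 and -2.68. Their UMIs were found in 44, 73 and 23 B cells, and single B cells held up to 64, 69 and 29 of them. Ighg1 had an interaction of 3.30 (SE 0.67), with a log2 fold change of 3.99 in B cells and 0.75 in other cells. Its UMIs were found in 36 B cells, by mouse 4, 1, 28 and 3, with up to 41 UMIs in 1 cell. Cxcr3 had 3.33 (SE 0.58, edgeR adjusted p = 3.7e-06), from 10, 2, 150 and 8 UMIs, so that immunized mouse 2 did not share the high level of immunized mouse 1. Cd3g, at 35 UMIs in 3 cells of unimmunized mouse 1 and 0 elsewhere, also passed and is given no fold change here.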

How the data were processed

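Per the paper's methods and the submitters' processing notes, the authors made the deposited UMI counts per gene with Cell Ranger 4.0.0 (count, then aggr over both captures) on an mm10 reference, and the deposited counts of hashtags and antibodies with CITE-seq-count (no version stated). All values were whole counts and were used as deposited. Whether aggr equalized depth between captures by subsampling was not stated, so depths and values per capture may be those after it. By the rule for kept cells, 1242 barcodes whose 621 sequences occurred in both captures were left out. 1425 barcodes had over 25% mitochondrial UMIs.

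The gate, gene lists and other members were chosen with earlier results of these data known. Counts were summed per mouse and tested with edgeR 4.0.16 (R 4.3.3, TMM, filterByExpr, quasi-likelihood test, Benjamini-Hochberg at 0.05) and DESeq2 1.42.0 as an alternative, after testing on simulated data. Shares and antibody signals were tested by exact permutation over mice. Detection was also computed after thinning to 1000 UMIs. Where no UMI was seen, 3 counts set the upper limit. Coordinates are from GENCODE M21 on GRCm38, the build of mm10.

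Genes named are the gate and sort genes, Hy10, the 12 highest and 8 lowest by their least favourable mouse ratio at 50 CPM or more, up to 4 members with highest CPM of each list, and others said to be chosen after their values were seen. Immunoglobulin variable genes were not named. A larger antibody count does not separate binding from uptake or carry-over, which was not tested. Alternatives were other gates, limits, captures, normalizations, filters, left-out mice and the mouse as a block. Some listed genes are not reported here.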

Additional observations from a re-analysis of the deposited data

Results flagged for a closer look

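For 3 antibodies, the difference between B cells and other kept cells had 1 sign in both unimmunized and the opposite sign in both immunized mice. This difference between conditions was not tested. For CD169 the mean difference was -0.789 in unimmunized and 0.512 in immunized mice. For F4/80 it was 0.249 in unimmunized and -0.249 in immunized mice, and for Ly-6c 0.297 and -0.518. These are centred log ratios, and as mean counts F4/80 and Ly-6c were lower on B cells in 4 of 4 mice. The F4/80 signal of B cells was -0.522 and -0.614 without immunization and -0.752 and -0.667 with it, and that of other cells was -0.720 and -0.913 without and -0.570 and -0.350 with it. The part of changing cell types among the other cells in these signs was not tested.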

How the results depend on the processing

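The number of genes called between conditions was the least stable result. In B cells it went from 0 to 3 in capture 1 alone, to 70 without a filter on low counts, and to between 1 and 66 with 1 mouse left out, where the lone mouse of a condition is assumed to vary like the others. For the interaction it went from 0 to 3 in capture 1 alone, 156 without the filter, 117 with the mouse as replicate block, and 0 to 109 with 1 mouse left out. For the other cells it went from 0 to 3256 without the filter, 1688 with DESeq2, and 0 to 3894 with 1 mouse left out. The replicate block pairs libraries of the same mouse, so the B cell comparison alone allowed no block.

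The difference in the share of B cells was 0.647 points in capture 1 alone and ranged from -1.97 to 1.09 with 1 mouse left out. The share of B cells with a Csf1r UMI was 7.02% at 2000 UMIs and 14.9% without thinning, and that with a Lyz2 UMI 75.6% and 94.1%, or 46.3% among B cells without Csf1r and with low Lyz2, where the choice of cells by Lyz2 itself lowers the share. The class differences ranged over left-out mice from 5.32 to 19.2 points (class-switched), 1.14 to 16.7 (germinal centre), -6.19 to 11.4 (dividing) and -9.64 to 3.93 (Ighd). Thinning gave -0.0970 points for the germinal centre class, from which nothing is read since 30.4% to 65.2% of the other cells met it too. Dividing cells gave -6.47 points without Csf1r and with low Lyz2, -0.0198 in capture 2 and -4.26 after thinning, and Ighd, at -2.85 points, gave 8.73 in capture 1 and -12.2 after thinning.

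Of the gate genes Cd79a, Ms4a1 and Cd79b changed sign under some settings, and Ebf1 ranged from -0.82 to -0.35 with a mouse left out. The log2 fold change of Cd79a was 0.065 without Csf1r, 0.23 with low Lyz2 as well, 0.29 in capture 1, 0.057 when both kinds of cells were fitted together, and -0.30 to 0.040 with a mouse left out. Ms4a1 gave 0.24 in capture 1, 0.011 when fitted together and -0.73 to 0.21 with a mouse left out, Cd79b 0.060 without Csf1r and with low Lyz2, and Ighd -0.85 to 0.34 with a mouse left out. Removing cells with Csf1r or Cd3 UMIs, chosen after seeing the data, gave 0.043 for Cd79a and -0.057 for Cfb. As log2 mean counts CD68 gave -0.480 and Ly-6g -0.590. F4/80, near 0, gave 0.00201 and 0.00414 with a stricter and a looser gate, 0.00151 without Csf1r, 0.0673 with low Lyz2 as well, 0.0166 at 10% mitochondrial UMIs, 0.0976 in capture 2 and 0.00598 in the added setting. With a mouse left out F4/80 ranged from -0.100 to 0.105, CD169 from -0.387 to 0.114 and Ly-6c from -0.299 to 0.0289. The causes of these changes were not tested. The 15 B cells of unimmunized mouse 2 limit every comparison.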

Other observations

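The red cell and platelet list held 1 gene that was higher in B cells of every mouse. Hbb-bt, a beta globin gene chosen after its values were seen, had 4, 6, 58 and 7 UMIs in B cells, or 9.45, 69.6, 41.0 and 18.2 CPM. It had a UMI in 25 of 303 B cells (8.25%), with at most 21 in 1 cell, and in 0.0422% of other cells. The 6 other listed genes, Hbb-bs, Hba-a1, Hba-a2, Ppbp, Pf4 and Gp9, had no UMI in any B cell. The level was higher in Ighd-negative than in Ighd-positive cells of unimmunized mouse 2 and immunized mouse 1 and lower in the other 2 mice.

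Cxcr3 UMIs in B cells were concentrated in 1 animal. Immunized mouse 1 had 150 UMIs in 48 of 161 B cells, and the other 3 mice had 10, 2 and 8 UMIs in 4, 1 and 3 cells. It did not pass the filter on low counts of the fit on B cells alone, so between conditions it was tested in the interaction fit and not within B cells.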
